A study of Mus musculus with 123 samples.

Results

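Neuropeptide Y (NPY) and its receptors were followed in mouse dorsal root ganglion (DRG) neurons after sciatic nerve transection (SNT). The members are 4 of the 24134 genes in the tables, chosen by symbol: Npy, which encodes the peptide, and Npy1r, Npy2r and Npy5r, which encode the Y1, Y2 and Y5 receptors. The nerve was cut on 1 side, and the DRG of the other side of the same mice served as control. Day-3 neurons came from F1 mice (CAST/Eij male X C57BL/6 female), described as female and 2 months old, and day-7 neurons from C57BL/6 mice labelled with both sexes. The labels name no other genotype and no drug in any group. Single neurons were picked by hand and made into libraries without molecular identifiers, with reads of 50 bp at day 3 and 75 bp at day 7, so day, strain and read length cannot be told apart.

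For day 3, 41 SNT-side and 18 control-side neurons were used, after the removal of 11 cells as outliers by the authors, and at day 7, 33 cells of the SNT side (16 labelled female and 17 male) and 14 of the control side (7 of each). No label names the mouse of a cell, so the cells of 1 side and day are 1 sample, and no test was made between groups of cells. Neurons were also pooled at day 3, with 3 libraries per side that are parts of 1 pool. A test between them compares 2 pools, and its p-values measure the technical spread between libraries. The side of a pooled library was taken from its column name. The sample identifiers written beside those names pair the columns with the opposite side, and by them every pooled difference given here would change sign. Atf3, which marks axotomised neurons, was at 1467 CPM in the pools named for SNT and at 13.5 CPM in those named for control, and day-3 cells held a mean of 1476 CPM after SNT against 17.7 CPM in controls.

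NPY is a short amidated peptide that is stored in dense-core vesicles and released from neurons, most famously from sympathetic fibres and hypothalamic cells. Its receptors couple to inhibitory G proteins (Gi/o), which lower cyclic AMP, open potassium channels and close presynaptic calcium channels. In uninjured DRG, Npy is nearly silent, Y1 is known from small peptidergic neurons and Y2 from part of the peptidergic and myelinated neurons. NPY in DRG neurons after a peripheral nerve cut has long served as a marker of the axotomy response.

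The precursor is shown because the peptide made from it is the ligand of all 3 receptors. In the GRCm38 annotation (GENCODE) Npy lies at chr6:49822710-49829507 on the plus strand, with 4 exons. Its coding sequence spans 3 of them and encodes 97 residues. The capitals mark the 108 bases for the mature peptide, residues 29 to 64, which end just before the Gly-Lys-Arg cleavage and amidation site (ggcaagaga).
Npy coding sequence: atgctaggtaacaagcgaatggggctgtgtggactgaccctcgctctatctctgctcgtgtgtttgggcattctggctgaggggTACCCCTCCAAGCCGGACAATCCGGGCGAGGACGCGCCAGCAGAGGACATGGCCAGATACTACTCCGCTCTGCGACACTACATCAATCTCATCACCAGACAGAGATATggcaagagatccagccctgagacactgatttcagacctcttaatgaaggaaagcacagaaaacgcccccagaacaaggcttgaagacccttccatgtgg
The window of 250 bases before the RefSeq start (GRCm38.p6, chr6:49822460-49822709, plus strand) is shown because Npy was the member that differed most. It was searched on both strands, as were the windows of the receptors, for the AP-1 letters TGANTCA, the CRE letters TGACGTCA and the GC box letters GGGCGG, which do not overlap each other here. Capitals mark the match found, a GC box whose first base lies at -95 from the start.
Npy promoter: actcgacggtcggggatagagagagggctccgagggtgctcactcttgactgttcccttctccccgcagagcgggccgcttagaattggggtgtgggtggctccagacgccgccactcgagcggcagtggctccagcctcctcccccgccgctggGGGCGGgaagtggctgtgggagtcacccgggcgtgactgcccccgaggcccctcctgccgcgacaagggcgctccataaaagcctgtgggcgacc
Over 32851 promoter windows of the same length, 32.7% held a GC box, 6.75% the AP-1 letters and 1.55% the CRE letters. The Npy2r window held a GC box at -62, the Npy1r window an AP-1 match at -231, and the Npy5r window none of the 3 motifs. These windows precede RefSeq starts, which differ from the GENCODE ones. The Npy1r window (chr8:66697172-66697421) lies mostly inside the GENCODE gene. The Npy5r window (chr8:66688095-66688344) overlaps the start of its gene. Letters missing from a window of this length say nothing of a factor's binding elsewhere.

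The receptor genes lie at chr8:66697192-66706792 (Npy1r, plus strand), chr8:66679965-66688128 (Npy5r, minus strand) and chr3:82538383-82548084 (Npy2r, minus strand). Npy1r and Npy5r are neighbours in opposite orientation with 9063 bases between them. No other annotated gene overlaps any of the 4 members on either strand.

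Expected counts per library summed to 261351 to 1849130 over the 106 kept cells and to 563462 to 2003817 over the pooled libraries. Values are given as CPM, the gene's share of its library's counts times 1000000. The 7 pan-neuronal markers summed to at least 6225 CPM in every kept cell, and the injury-induced transcription factor Atf3 was at 1467 ± 133 CPM in the pooled SNT side and 13.5 ± 7.03 CPM in the control side (SD, n = 3 libraries each).

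Npy was near 0 in the control pool and abundant in the SNT pool. The 3 SNT-side libraries held 607, 758 and 941 CPM of Npy, and the 3 control-side libraries 0, 3.58 and 5.32 CPM. The sides did not overlap. Mean levels were 769 ± 167 and 2.97 ± 2.71 CPM (SD, n = 3 libraries each), a log2 change of 8.19 ± 0.30 (SE) at an adjusted p of 1.55e-23 in edgeR's quasi-likelihood test. The summed counts, 3772 against 6, gave a 277-fold ratio, with a 95% exact interval of 127 to 757 for counting error.

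The Y1 and Y2 receptor transcripts were also higher in the SNT pool, at far lower counts. Npy1r was at 16.1, 28.7 and 23.95 CPM in the SNT-side libraries and at 0, 0 and 3.55 CPM in the control-side libraries. Its log2 change was 4.58 ± 0.73 (SE) at an adjusted p of 4.45e-06 (edgeR). Only 2 control counts stood behind that value, and the ratio of summed counts was 23.8 with an exact interval of 6.44 to 199. Npy2r was at 18.5, 15.7 and 10.5 CPM on the SNT side and 0, 0 and 3.55 CPM on the control side. Its log2 change was 3.95 ± 0.82 (SE) at an adjusted p of 0.000263 (edgeR), and its ratio of summed counts was 15.4 with an exact interval of 4.12 to 130. The control counts of both receptors lay in control library 3, and without that library the fitted log2 changes, then set by the prior count, were 7.91 and 7.287. With a prior count of 2 they were 3.271 and 2.69.

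Npy5r, which encodes the Y5 receptor, did not pass the test. It was at 2.39, 3.482 and 0.998 CPM in the SNT-side libraries and at 0 in all 3 control-side libraries. The ratio of the 10 SNT-side counts to 0 had an exact lower limit of 0.989, which bounds no increase, and the adjusted p was 0.11 (edgeR). The filter was a mean of 1 CPM over all 6 libraries. Control-side means were 2.97 CPM for Npy, 1.18 CPM for Npy1r and for Npy2r, and 0 for Npy5r. With no count on the SNT side, Npy alone would thus have reached it. At control-side levels on both sides, Npy1r and Npy2r would have reached it too, and Npy5r would not. The 3 members called higher (Npy, Npy1r and Npy2r) stand beside 8.83% of the 13509 genes tested, and 15.9% changed in either direction. The 4 members with every SNT-side library above every control-side library stand beside 16.7% of genes. In pooled neurons, more cells with a transcript and more transcript per cell cannot be told apart.

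**Figure D1:**
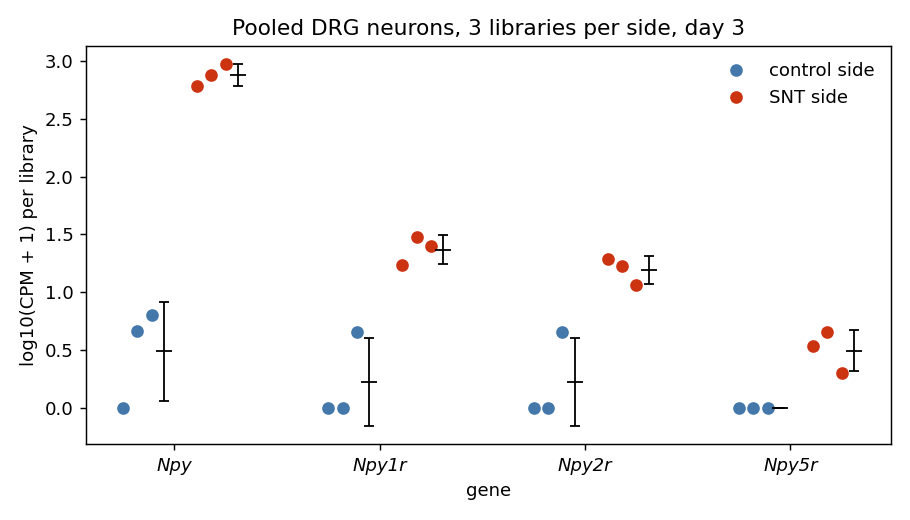
Levels of the 4 members in pooled DRG neurons at day 3, as log10(CPM + 1), with 1 point per library and the mean ± SD of the 3 points beside them. The 3 Npy points of the SNT side correspond to 607 to 941 CPM against at most 5.32 CPM on the control side.

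Other NPY-family genes were not seen in the pools. Pyy and Ppy, the related gut peptides, and the receptor genes Npy4r and Npy6r had 0 counts in all 6 libraries and could not be tested. Of 11 tested genes for peptide processing and release, 1 rose, none fell and 10 were not changed, with a median log2 change of 0.00 against 0.02 over all genes. Of all genes tested 8.83% were called higher, so 1 of 11 lies near that share. The gene that rose was Pcsk1, a prohormone convertase that cuts precursors at paired basic residues, from 24.3 ± 3.425 to 71.4 ± 3.56 CPM (SD, n = 3 libraries each), a log2 change of 1.70 at an adjusted p of 3.265e-06 (edgeR). The log2 changes of Cpe, which trims the basic residues, and Pam, which amidates the peptide end, were -0.07 and -0.53, with adjusted p of 0.756 and 0.0723 (edgeR).

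Of 20 tested genes of Gi signalling and its effectors, 3 rose, 4 fell and 13 were not changed, with a median log2 change of 0.04. Over all genes tested, 15.9% changed in either direction. The difference from this share was not tested. Gnao1, the main G protein alpha subunit of this type in neurons, fell from 848 ± 15.5 to 305 ± 9.02 CPM (SD, n = 3 libraries each). Adrbk1 and Adrbk2, receptor kinases that desensitise G protein-coupled receptors, fell by 1.35 and 2.76 on the log2 scale, and the adenylyl cyclase gene Adcy5 fell by 1.51. Arrb1, a beta-arrestin, rose by a log2 change of 1.96, and the cyclase genes Adcy2 and Adcy3 rose by 2.80 and 2.16. Adjusted p over these 7 genes ran from 7.22e-11 (Gnao1) to 0.0192 (Adcy5) in edgeR's test.

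Markers of other cell types differed between the pools as well, beside 15.9% of all genes tested that changed in either direction. Of 10 satellite glia and Schwann cell genes, 1 rose, 5 fell and 4 were not changed, and their summed level was 6156 to 6950 CPM on the SNT side and 12636 to 15313 CPM on the control side. Of 8 immune genes, 3 were tested and 2 rose, with summed levels of 9.56 to 15.5 CPM against 0 to 3.58 CPM. Of 7 genes of sympathetic neurons, which express Npy, only Slc18a1 reached the filter and was not changed, with summed levels of 2.99 to 4.35 CPM against 0 to 5.96 CPM. Phox2a and Hand2 were at 0 in all 6 libraries. The part of glia and immune cells in the members' differences was not tested.

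Single cells showed that Npy was on in some SNT-side neurons and near 0 in the rest. At day 3, Npy ran from 0 to 3006 CPM over the 41 SNT-side cells, with a median of 1.58 CPM, and from 0 to 9.5 CPM over the 18 control-side cells, with a median of 0. A level above 10 CPM, taken here as on, was reached in 18 of 41 cells after SNT (43.9%, exact 95% interval 28.5 to 60.3%) and in 0 of 18 control cells, which allows a share of up to 16.7% at a limit of 3 cells and 18.5% by the exact interval. On the SNT side the lowest cell counted as on was at 18.0 CPM and the highest counted as off at 5.21 CPM, under the highest control-side cell at 9.5 CPM. Mean levels were 291 ± 621 and 1.07 ± 2.54 CPM (SD over cells), a log2 ratio of mean CPM + 1 of 7.137. With the outliers included, 47.9% of SNT-side and 9.09% of control-side cells had Npy on, and the log2 ratio was 5.62. Intervals cover counting error only.

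At day 7 the separation was wider. Npy ran from 0 to 6483 CPM over 33 SNT-side cells, with a median of 0, and no count was found in any of 14 control-side cells. Npy was on in 11 of 33 SNT-side cells (33.3%, exact 95% interval 18.0 to 51.8%), each at 286 CPM or more, and in 0 of 14 control-side cells, which allows a share of up to 21.4% at a limit of 3 cells and 23.2% by the exact interval. The highest cells counted as off were at 9.28 and 6.49 CPM. The mean was 605 ± 1302 CPM (SD over cells) on the SNT side, and the summed CPM was at least 2167-fold higher than on the control side at a limit of 3 counts over that group. By sex label, Npy was on in 7 of 16 female and 4 of 17 male cells, and the log2 ratios within the labels were 9.72 and 8.57. The difference between the labels was not tested.

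**Figure D2:**
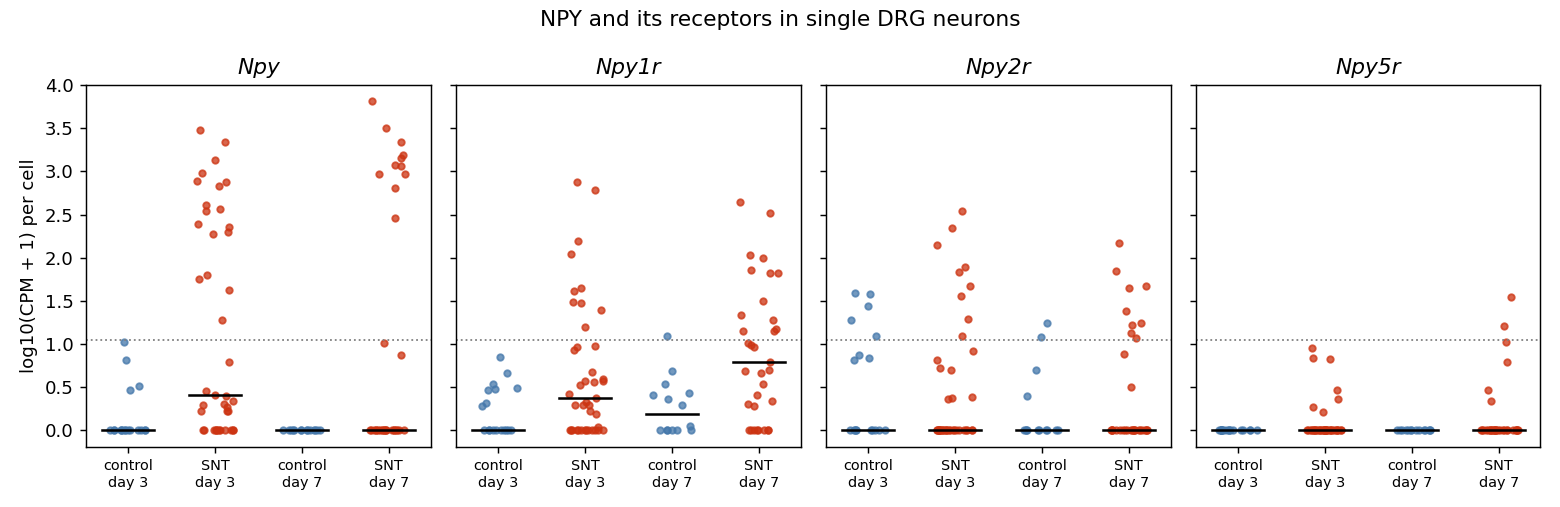
Levels of the 4 members in each kept cell, as log10(CPM + 1), by side and day, with the median as a bar and 10 CPM as a dotted line. Control-side cells of both days lie at or under 9.5 CPM of Npy, and SNT-side cells reach 3006 CPM at day 3 and 6483 CPM at day 7.

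The cells with Npy on had high levels of Atf3, and of part of the other transcripts known from axotomised neurons. The highest control-side cell had 75.7 CPM of Atf3 at day 3, and 30 of 41 SNT-side cells lay above it, at 951 CPM or more. All 18 cells with Npy on were among these 30, and in the 11 other cells Npy was at most 1.5 CPM. The same 18 cells also exceeded the control range of Sprr1a, a small proline-rich protein of growing axons, and of Sox11, a transcription factor of regenerating neurons, while 14 of the 18 exceeded that of Gal, the neuropeptide galanin. Fewer exceeded the control range of Gap43, a protein of growth cones (11 of 18), and of Jun, a transcription factor of the injury response (10 of 18). Of the 23 SNT-side cells with Npy off, 12 exceeded the control range of Sprr1a and 13 that of Sox11. For Gal, Gap43 and Jun the numbers were 8, 10 and 6. At day 3 these levels were thus not particular to cells with Npy on. At day 7, 12 of 33 SNT-side cells were above the highest control-side level of Atf3 (29 CPM), and all 11 cells with Npy on were among them. These 11 cells all exceeded the control range of Sprr1a, Sox11 and Gap43, while 6 exceeded that of Gal and 5 that of Jun. Of the 22 SNT-side cells with Npy off, 9 exceeded the control range of Gap43 and 2 that of Sprr1a. For Gal, Sox11 and Jun the numbers were 2, 1 and 0. The Atf3-high cell with Npy off, SNT-side cell 16, had 1039 CPM of Atf3 and 9.28 CPM of Npy. Of the 21 cells with low Atf3, 20 had no Npy count and 1 had 6.49 CPM.

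At day 3, 12 Atf3-high cells kept Npy at 5.21 CPM or less. Their Atf3 had a median of 1980 CPM, against 1888 CPM in the cells with Npy on. The rank correlation of Npy with Atf3 over all SNT-side cells was 0.36 at day 3 (n = 41 cells) and 0.81 at day 7 (n = 33 cells). With Gal it was 0.35 and 0.34. These describe cells of 1 sample and share each library's depth. Cells with Npy on held 994520 to 1849130 counts at day 3 (median 1352530) against 611647 to 1537760 in the others (median 1191130). After each cell was thinned to 200000 counts the shares of SNT-side cells with Npy on were 43.9% at day 3 and 36.4% at day 7.

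**Figure D3:**
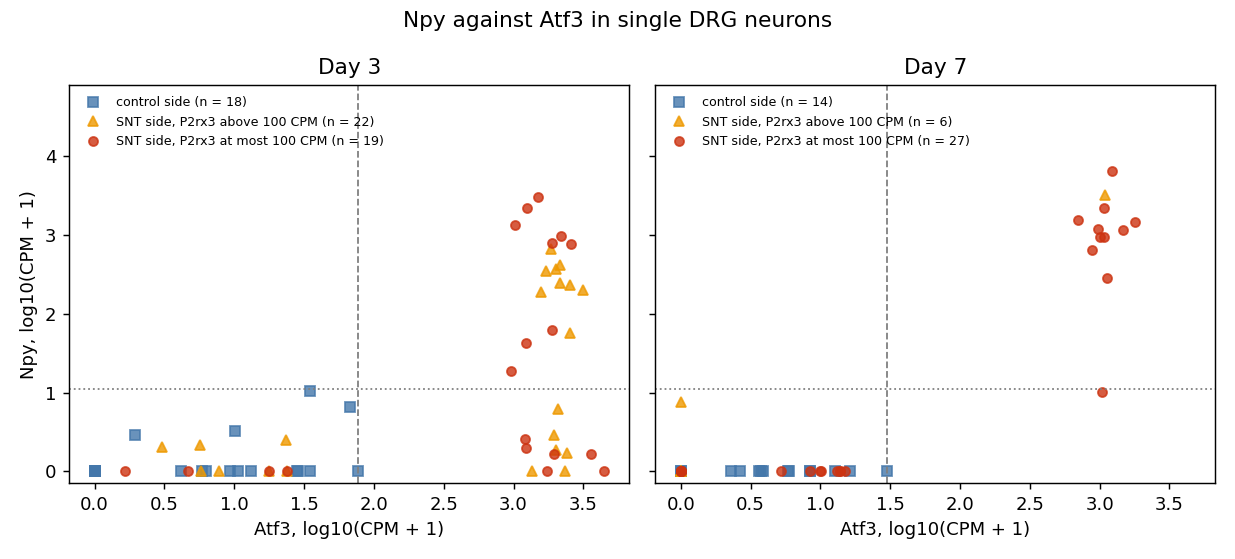
Npy against Atf3 in each kept cell, both as log10(CPM + 1), with the highest control-side Atf3 as a dashed line and 10 CPM of Npy as a dotted line. All 18 cells with Npy on at day 3 and all 11 at day 7 lie to the right of the dashed line, and 12 cells at day 3 and 1 at day 7 lie there with Npy off.

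At day 3, Npy was on in neurons with different class markers, read after the injury. In the pools these markers themselves differed between the sides. The log2 changes were -9.92 for Mrgprd, -1.23 for P2rx3, -0.85 for Calca, 1.19 for Nefh, 1.62 for Ntrk3 and 1.22 for Pvalb. Of these, Calca and Pvalb were not called changed. A marker level in an Atf3-high cell therefore does not settle its class before injury. The 30 Atf3-high cells divided into 15 with P2rx3, the ATP-gated channel of nonpeptidergic nociceptors, above 100 CPM and 15 at or under it, and Npy was on in 9 of each. The 9 P2rx3-high cells had 1347 to 2957 CPM of P2rx3, 44.5 to 178 CPM of Nefh, the heavy neurofilament of myelinated neurons, and 56.3 to 669 CPM of Npy (median 245). The 9 P2rx3-low cells had at most 29.7 CPM of P2rx3, 239 to 1550 CPM of Nefh and 18.0 to 3006 CPM of Npy (median 782). These values overlap, and the 6 highest Npy levels all lay in P2rx3-low cells.

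Those 6 cells were not all alike. SNT-side cell 14, with 3006 CPM of Npy, and cell 3, with 2209 CPM, had Ntrk3 (the neurotrophin-3 receptor of proprioceptors and touch neurons) at 72.6 and 93.3 CPM. Pvalb, the parvalbumin of proprioceptors, was at 51.0 CPM in cell 14 and at 566 CPM in cell 3, the highest level among day-3 SNT-side cells. Cell 28, with 1340 CPM of Npy, had the highest Ntrk3, 144 CPM. Cell 11, with 967 CPM, instead had 9267 CPM of Calca, the CGRP precursor of peptidergic neurons. It was the only cell with Npy on among the 12 SNT-side cells with Calca above 1000 CPM, of which only cells 11 and 27 were Atf3-high. None of the 3 SNT-side cells with over 100 CPM of Mrgprd, a receptor of nonpeptidergic neurons, had Npy on, and none of these 3 was Atf3-high.

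At day 7 most picked neurons held much Nefh (over 1000 CPM in 31 of the 33 after SNT). Cells with Npy on had a lower median, 1523 CPM, than the 21 cells with low Atf3, at 3858 CPM. The rank correlation of Npy with Nefh was -0.65 over the 33 cells (0.19 over the 41 day-3 cells). Npy was on in 11 of the 12 Atf3-high cells, so Npy and the injury state cannot be told apart in these values. The Atf3-high cell with Npy off is in neither median. Of the 11 cells with Npy on, 10 had 1017 to 2822 CPM of Nefh, at most 7.46 CPM of P2rx3 and at most 6.47 CPM of Calca. The exception, SNT-side cell 29, had 3191 CPM of Npy, the second highest level, with 461 CPM of P2rx3, 998 CPM of Calca and 8330 CPM of Gal. The highest cell, number 13, had 6483 CPM of Npy, no count of Gal and 202 CPM of Ntrk3. Of the 10 SNT-side cells with Calca above 1000 CPM, none had Npy on, and Atf3 was above the control range in none of those cells.

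Marker levels of other cell types in the cells with Npy on were as follows. Hand2, a transcription factor of sympathetic neurons, had no count in any kept cell of either side or day, and Dbh, the enzyme that makes noradrenaline, reached at most 17.9 CPM. The summed level of the 7 sympathetic genes was at most 27.4 CPM in day-3 cells with Npy on, where Npy reached 3006 CPM, and at most 12.1 CPM at day 7. The 10 glial genes summed to 891 to 8820 CPM (median 5725) in day-3 cells with Npy on and 1002 to 11059 CPM (median 3663) in the other SNT-side cells. At day 7 the medians were 1129 and 3357 CPM. The 8 immune genes summed to medians of 15.1 and 5.66 CPM at day 3, and 6.05 and 2.98 CPM at day 7. The part of glia and immune cells in the Npy levels was not tested.

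Among the receptors, Npy1r was the member that set SNT-side cells apart most often. At day 3 it ran from 0 to 754 CPM on the SNT side (median 1.34 CPM, mean 45.5 ± 150, SD over cells) and from 0 to 6.02 CPM on the control side (mean 1.12 ± 1.67), with 10 of 41 and 0 of 18 cells above 10 CPM. At day 7 it ran from 0 to 440 CPM on the SNT side (mean 40.5 ± 94.4) and to 11.4 CPM on the control side (mean 1.67 ± 3.03), with 13 of 33 and 1 of 14 cells above 10 CPM. The log2 ratios were 4.46 and 3.95, and 3.76 and 3.438 without the highest SNT-side cell of each day. All 10 day-3 cells above 10 CPM were Atf3-high, and 8 of them were P2rx3-low. At day 7, 9 of the 13 were Atf3-high, and cells 6, 25, 26 and 33 were not. Of the 79 libraries with Npy1r above 0, outlier cells included, 25.3% held a whole number, against 60.3% of 58 libraries for Npy. RSEM divides a read that could come from more than 1 feature, so values of both genes that are not whole are uncertain. For Npy1r these included low values, such as 1.34 counts in control-side day-3 cell 2. For Npy they included high values, such as 397.55 counts in SNT-side day-3 cell 2.

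The day-3 cells with the most Npy1r lacked Npy. SNT-side cells 5 and 12 had 754 and 615 CPM of Npy1r, no count of Npy, and 13595 and 18957 CPM of Gal. Cells 7 and 32 had 156 and 109 CPM of Npy1r and at most 0.675 CPM of Npy. So none of the 4 cells above 100 CPM of Npy1r had Npy on, while 6 of the 10 above 10 CPM did, at 14.6 to 44.1 CPM of Npy1r. At day 7 the overlap was larger, with Npy on in 8 of 13 cells above 10 CPM of Npy1r and in 2 of 3 above 100 CPM. Cell 30 had 329 CPM of Npy1r with 1537 CPM of Npy, and cell 9 had 107 with 936 CPM. The highest Npy1r of the day, 440 CPM, was in cell 6, which had no count of Atf3, 4884 CPM of Calca and 6.49 CPM of Npy. The rank correlation of Npy with Npy1r was 0.09 over the 41 day-3 SNT-side cells and 0.48 over the 33 day-7 cells, given as descriptions.

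Npy2r, the receptor known as a presynaptic brake on peptide release, was found on both sides. At day 3, 9 of the 41 neurons after SNT (22%) and 5 of the 18 control neurons (27.8%) had over 10 CPM, yet mean levels were 23.97 ± 66.5 and 8.30 ± 13.03 CPM (SD over cells), since SNT-side cells 7, 31 and 10 reached 344, 221 and 138 CPM against 38.5 CPM in the highest control-side cell. The log2 ratio was 1.42, and 0.87 without cell 7. At day 7, 9 of 33 and 2 of 14 cells had over 10 CPM, the means were 11.97 ± 29.4 and 2.37 ± 5.10 CPM, and the log2 ratio was 1.95, with 1.37 when cell 29 was left out, 0.84 within female cells and 2.73 within male cells. All 5 control-side day-3 cells above 10 CPM had 1826 CPM or more of Calca, a level set by the lowest of these same cells. Such Calca levels were not particular to them. Control-side day-3 cells 5 and 10 had 6400 and 3538 CPM of Calca and no count of Npy2r. At day 7, 8 of the 9 SNT-side cells above 10 CPM had over 10 CPM of Calca, with a median of 6218 CPM over the 9. Calca was not high in all such cells: over the 9 day-3 SNT-side cells it ran from 65.8 to 20041 CPM (median 521), and cell 10 of the day-7 control side had 11 CPM of Npy2r and no count of Calca.

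Few cells held both Npy2r and Npy, and Npy2r was found in few cells as a whole. At day 3, 2 of the 18 cells with Npy on had over 10 CPM of Npy2r, beside 9 of all 41 SNT-side cells. They were cell 21 with 67.9 CPM and cell 24 with 11.3 CPM, both P2rx3-high. At day 7, 2 of 11 did, beside 9 of all 33. The difference from these shares was not tested. Cell 29 of day 7, with 149 CPM of Npy2r, 3191 CPM of Npy and 70.9 CPM of Npy1r, was the only cell that held over 50 CPM of all 3. The rank correlations of Npy with Npy2r were -0.16 and -0.14. Between Npy1r and Npy2r they were -0.11 and -0.06, and day-3 cell 7, with 156 and 344 CPM, was the only cell with over 100 CPM of both.

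Npy5r was the lowest member. It was seen in 7 of 41 SNT-side cells at day 3, at 0.643 to 8.10 CPM, and in 6 of 33 at day 7, at 1.17 to 34.1 CPM, while all 18 and 14 control-side cells had no count. Summed counts were 32 at day 3 and 36 at day 7, at least 3.171-fold and 6.43-fold higher per CPM than a limit of 3 counts over each control group. All 7 day-3 cells with Npy5r had 28.7 CPM or more of Npy1r, and all 6 day-7 cells had 13.9 CPM or more, so the neighbouring genes were seen in the same cells. Their rank correlation was 0.63 at day 3 and 0.62 at day 7, in sparse counts. The highest Npy5r, 34.1 CPM, and the highest Npy1r of day 7 lay in the same cell, number 6.

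**Figure D4:**
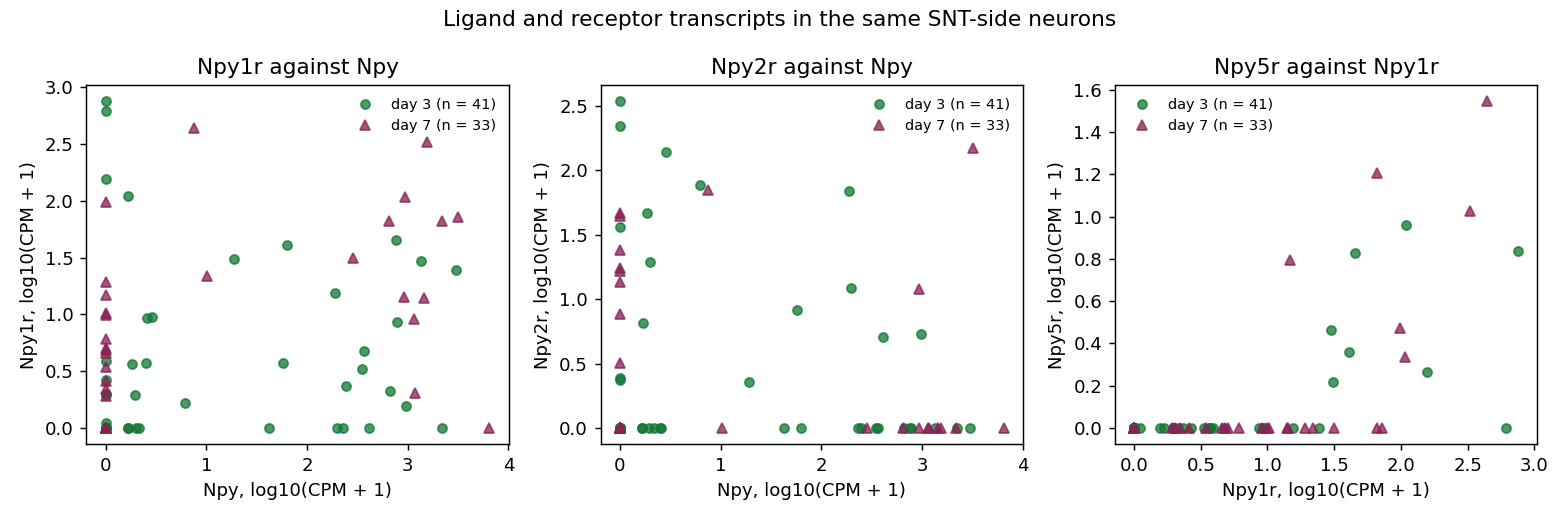
Receptor against ligand in each SNT-side cell (Npy1r and Npy2r against Npy) and Npy5r against Npy1r, all as log10(CPM + 1), with 41 day-3 cells as circles and 33 day-7 cells as triangles. The 4 day-3 cells above 100 CPM of Npy1r lie at the left edge, at 0.675 CPM of Npy or less, and each cell with Npy5r also holds Npy1r.

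Over all features whose mean reached 1 CPM, 6.78% of 13644 genes at day 3 and 5.99% of 13264 genes at day 7 had a log2 ratio above 1, SNT over control. Of the members that passed this filter, Npy, Npy1r and Npy2r lay above 1 at day 3. There Npy5r was under the filter with a log2 ratio of 0.67. All 4 lay above 1 at day 7, where Npy5r had 1.60. The filter was set on the average of the 2 side means. At day 7 Npy and Npy5r had no control-side count, so only the SNT side brought them past it. A gene without control-side counts that passes has a log2 ratio above 1 through the filter alone, so that place is no result.

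Compared per kilobase of the longest annotated transcript (566 bases for Npy, 3001 for Npy1r, 3364 for Npy2r and 2314 for Npy5r), the order of levels on the SNT side was the same in each set of libraries. In the pools Npy was at 1358 ± 296 CPM per kb, Npy1r at 7.64 ± 2.12, Npy2r at 4.43 ± 1.21 and Npy5r at 0.990 ± 0.538 (SD, n = 3 libraries). Npy1r and Npy2r were neighbours whose ranges of 5.38 to 9.57 and 3.115 to 5.51 CPM per kb overlapped. Over day-3 cells the means were 513, 15.2, 7.126 and 0.257 CPM per kb, and over day-7 cells 1070, 13.5, 3.56 and 0.879. In control-side cells at day 3, Npy2r was the highest with 2.47 ± 3.87 CPM per kb, next to Npy at 1.89 ± 4.48 and Npy1r at 0.373 ± 0.555 (SD over 18 cells), which overlapped. In the control pool the order differed, with Npy at 5.24 ± 4.80, Npy1r at 0.394 ± 0.683 and Npy2r at 0.352 ± 0.609 CPM per kb (SD, n = 3 libraries), each with 1 or more libraries at 0.

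The genes whose levels ran most like Npy over SNT-side cells were ranked by Spearman's rho among genes whose mean reached 10 CPM. Over 41 day-3 cells and 9165 genes they were Tspan17 (a tetraspanin, rho 0.76), Pmaip1 (the pro-apoptotic protein Noxa, 0.76), Ptpro (a receptor tyrosine phosphatase, 0.73), Pappa2 (a protease of IGF-binding proteins, 0.70) and Pxdc1 (0.69). Over the 33 day-7 cells the same genes had a rho of 0.73, 0.25, 0.67, 0.79 and 0.70. Over the day-7 cells and 9119 genes the first were Lama5 (a laminin chain, 0.90), Fst (follistatin, an activin antagonist, 0.90), Taf7l (0.90), Slc6a4 (the serotonin transporter, 0.89) and Gpr151 (an orphan receptor, 0.87), whose day-3 values were 0.45, 0.62, 0.42, 0.49 and 0.54. No gene was among the first 5 on both days.

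These genes differed in how far the sides lay apart. Tspan17 was at 520 ± 193 CPM in SNT-side and 382 ± 104 CPM in control-side cells at day 3, and at 322 ± 159 against 327 ± 60.96 CPM at day 7. Gpr151 was at 228 ± 175 against 6.81 ± 7.39 CPM at day 3 and at 81.9 ± 145 against 0.140 ± 0.525 CPM at day 7 (SD over cells). Pappa2 was at 81.9 ± 134 against 0.371 ± 1.14 CPM at day 3 and 34.5 ± 54.9 against 0.596 ± 1.75 CPM at day 7.

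For the receptors the likeness was taken over all kept cells of a day. The genes most like Npy1r were H2-T23 (0.56), Rnf25 (0.55) and Ptp4a3 (0.54) over 59 day-3 cells and Prrc2b (0.65), Zfp292 (0.63) and Znrf1 (0.63) over 47 day-7 cells. Those most like Npy2r were Tmem100 (0.73), Gng8 (0.68) and Ptgir (0.67) at day 3, with 0.46, 0.41 and 0.59 at day 7, and Fam150b (0.76), Zbtb20 (0.68) and Atp8a1 (0.64) at day 7, with 0.28, 0.37 and 0.04 at day 3. Tmem100 is known from peptidergic neurons and Ptgir encodes the prostacyclin receptor. Sides are mixed in these values and many of the receptor counts are 0.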

How the data were processed

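DRG neurons and pools of neurons were measured by RNA-seq at 3 and 7 days. The deposited tables are named TPM, but their values are expected counts: the authors aligned reads to mm9 with Bowtie2 after CASAVA 1.8.2, per the labels, and estimated expression with RSEM on RefSeq exons, with ribosomal RNA removed. Symbols came from the table of 106 kept cells, since 27 are spelled as dates in the other. Members and gene lists were chosen with earlier results of these data known.

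Pooled counts were rounded and tested with edgeR 4.0.16 (limma 3.58.1, R 4.3.3) by the quasi-likelihood test, with TMM factors, a mean of at least 1 CPM and a prior count of 0.125. A gene was called changed at a Benjamini-Hochberg adjusted p under 0.05 and a log2 change beyond 1. DESeq2 1.42.0 and limma were alternatives. Library numbers of the 2 sides did not pair the samples. Any 2 of the 3 libraries of a side, which are parts of 1 pool, differed by 2.48 to 3.93 chi-square units per gene, more than sampling noise. Cells were described in Python 3.11.15 (numpy 2.4.6, pandas 2.3.3, scipy 1.17.1, matplotlib 3.10.9), with Clopper-Pearson 95% intervals, a pseudocount of 1 CPM and no test. The named genes were the members, genes of the lists, and the genes most like Npy (5 per day) and most like Npy1r and Npy2r (3 per day). Sequences and coordinates are from RefSeq and GENCODE for GRCm38, not the authors' build. Scripts were tested on simulated counts. The spike-ins were not analysed here.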

Additional observations from a re-analysis of the deposited data

Results flagged for a closer look

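Npy was also present in cells that the authors had removed as outliers and that were left out of the main comparisons. SNT-side day-3 cell 40 held 2620 CPM and cell 38 held 579.1 CPM of Npy, above the highest control-side cell of that day, which was itself among the removed cells at 89.3 CPM. Cell 40 had 180 CPM and cell 38 had 82.2 CPM of Atf3, against 951 CPM or more in every kept day-3 cell with Npy on. Both had high Ntrk2, at 740 and 1009 CPM, while the kept day-3 SNT-side cells reached 357 CPM. High Ntrk2 was shared by all removed cells of both sides, which ran from 424 to 1852 CPM. The libraries of cells 40 and 38 held 389656 and 401682 counts. Of the 7 removed SNT-side cells, 5 had over 10 CPM of Npy, and of the 4 removed control-side cells, 2 did.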

How the results depend on the processing

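Of the alternative values computed, 134 stayed on their side of the threshold or within their spread, none turned a log2 change or ratio and 12 moved, the spread for cells being the SD over single cells, which is wide. The 12 were shares and ratios of receptors, set by the level or pseudocount itself. With 1 CPM as the level, the day-3 share of SNT-side cells was 53.7% for Npy1r, 39.02% for Npy2r and 12.2% for Npy5r, and the day-7 share for Npy1r 72.7%, against 38.9%, 44.4%, 0% and 42.9% of control-side cells. For Npy at day 3 it was 58.5% against 22.2%. With 100 CPM, the day-3 shares were 9.76% for Npy1r and 7.317% for Npy2r (0% of control-side cells for both), and the day-7 shares 9.09% for Npy1r, 3.03% for Npy2r and 0% for Npy5r. The day-3 Npy2r share was thus below the control side at 1 and 10 CPM and above it at 100 CPM. With a pseudocount of 0.1 CPM the log2 ratio of Npy5r was 2.80 at day 3 and 4.42 at day 7, and with 10 CPM 0.27 at day 7. Over the same pseudocounts the ratio of Npy ran from 7.96 to 4.76 at day 3 and from 12.56 to 5.94 at day 7, and with 10 CPM that of Npy1r was 2.32 and 2.11. With outlier cells included, Npy was on in 47.9% of SNT-side and 9.09% of control-side day-3 cells, and the log2 ratio was 5.62. Leaving out the highest SNT-side cell was chosen after seeing the data.

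In the pools, leaving out 1 library at a time gave log2 changes of 7.601 to 8.73 for Npy, 3.93 to 7.91 for Npy1r, 3.302 to 7.287 for Npy2r and 4.51 to 4.65 for Npy5r, with 1884 to 2148 genes changed. Over the other alternatives Npy ran from 7.52 to 8.24, Npy1r from 3.271 to 4.71 and Npy2r from 2.69 to 4.07, and Npy5r from 1.22 to 4.59. A filter of 10 CPM removed Npy2r and Npy5r from the test, and Npy5r was also under the filter without SNT-side library 1 or 2. DESeq2 gave no adjusted p for Npy5r. Changed genes numbered 2154, and 1649 to 2243 over the alternatives. Scaled by library size alone, 43.6% of changed genes were higher against 55.4%, with the median of all genes at -0.14 against 0.02. Same-numbered libraries correlated at 0.06, -0.02 and -0.01, so the numbers were not taken as pairs. With the replicate block, 2008 genes changed, with log2 changes of 8.17 for Npy, 4.59 for Npy1r, 3.94 for Npy2r and 4.59 for Npy5r, and no member's call changed. Depth limits the control-side values, which rest on 0 to 6 counts per member.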
